A study of Rattus norvegicus with 20 samples.

Results

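The genes described here encode proteins that bind fatty acids or take them up into cells. They are 10 of the 14217 genes measured in the liver, namely Fabp1, Fabp2, Fabp4, Fabp5, Fabp7, Dbi, Cd36, Slc27a1, Slc27a2 and Slc27a4, taken by symbol because of what their products do. Each gene was read from its probe set with the highest mean value over all 20 arrays. Only Cd36 had another probe set, which is annotated to both Cd36 and Cd36l1 and served as a check.

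The rats were male Sprague-Dawley rats that arrived at 4 weeks of age, were housed individually and ate 1 of 4 diets for 21 days. TF rats ate tofu and fish oil, TS rats tofu and soybean oil, CF rats casein and fish oil, and CS rats casein and soybean oil. All diets held 200 g/kg of protein and 150 g/kg of fat, the fish oil diets held 50 g/kg of tuna-derived fish oil in place of soybean-derived fat, and the tofu diets still held some casein beside freeze-dried tofu. The tofu diets also held less sucrose and less energy per kg than the casein diets, and part of their fat came within the tofu. These differences cannot be told apart from the protein source in the effects below. The array study used 5 rats per diet, without those that ate the most and the least, and food was withheld shortly before the livers were taken.

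Fatty acids are poorly soluble in water and move through the cytosol bound to small carriers. The fatty acid binding proteins are a family of such carriers, named after the tissue in which each was first studied, and liver-type Fabp1 is very abundant in the cytosol of hepatocytes. Dbi, also called acyl-CoA binding protein, holds fatty acids once they are activated to acyl-CoA. Cd36 is a scavenger receptor that binds long-chain fatty acids at the cell surface, and the Slc27a proteins (fatty acid transport proteins) combine uptake with acyl-CoA synthetase activity. Several of these genes are known targets of PPAR alpha and related nuclear receptors, which bind DNA together with RXR at paired copies of a short half-site.

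Promoters of 8 of the 10 genes, all but Fabp4 and Fabp5, were matched in the RefSeq table of the rat build GRCr8. Nothing below on promoters covers Fabp4 or Fabp5. The promoters of Fabp1, Slc27a2, Fabp2 and Dbi are shown because the diet results and the variation among rats turn on these genes. Each runs 5′ to 3′ over the 250 bases before the annotated start. Capitals mark a direct repeat of AGGNCA with 1 base (N) between its copies in Fabp1 and a single half-site (AGGTCA) in Slc27a2, both read on the opposite strand.
Fabp1, chr4:104749090-104749339 (plus strand): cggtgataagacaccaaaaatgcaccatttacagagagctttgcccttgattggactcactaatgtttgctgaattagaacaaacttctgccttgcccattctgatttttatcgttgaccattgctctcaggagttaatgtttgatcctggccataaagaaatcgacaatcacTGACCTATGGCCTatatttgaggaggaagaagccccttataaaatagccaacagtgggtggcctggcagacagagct
Slc27a2, chr3:134257851-134258100 (plus strand): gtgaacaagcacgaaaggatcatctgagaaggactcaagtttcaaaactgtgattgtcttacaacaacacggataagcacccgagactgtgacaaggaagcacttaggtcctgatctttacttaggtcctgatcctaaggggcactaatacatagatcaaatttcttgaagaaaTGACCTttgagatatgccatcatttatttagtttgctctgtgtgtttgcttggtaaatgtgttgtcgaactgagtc
Fabp2, chr2:213724379-213724628 (plus strand): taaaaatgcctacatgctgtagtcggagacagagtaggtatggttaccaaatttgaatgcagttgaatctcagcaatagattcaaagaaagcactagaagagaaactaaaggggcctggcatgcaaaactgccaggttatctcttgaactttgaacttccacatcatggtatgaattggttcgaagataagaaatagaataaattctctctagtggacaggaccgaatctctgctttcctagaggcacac
Dbi, chr13:33802619-33802868 (minus strand): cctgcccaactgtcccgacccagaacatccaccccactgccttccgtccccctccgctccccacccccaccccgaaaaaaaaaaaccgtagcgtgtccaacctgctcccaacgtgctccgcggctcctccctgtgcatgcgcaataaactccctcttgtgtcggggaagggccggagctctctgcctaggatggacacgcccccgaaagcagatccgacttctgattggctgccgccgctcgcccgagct
Among the 8 promoters the direct repeat was found in Fabp1 only, 77 to 65 bases before the start, and it was found in 0.368% of 33469 rat promoters of the same length searched on both strands. The half-site alone, which overlaps that repeat in Fabp1, was found in Fabp1, Fabp7, Slc27a1 and Slc27a2 and in 14.1% of all promoters, and in Slc27a2 it lay 76 to 71 bases before the start. TATAAA was found in Fabp1 and Cd36 (12.9% of all promoters) and CCAAT in 5 of the 8, Fabp2 and Dbi included (34.0% of all). The E-box CACGTG and the sterol element TCACNCCAC were found in 0 of the 8, against 5.59% and 0.974% of all promoters. These are matches of letters in a fixed window and were not tested as binding sites.

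Values are deposited z scores, in which each array was standardized to its own signal distribution on a log scale, and a difference of 1 in z corresponds to a 5.57-fold difference in signal on the scale given in the study's methods. No measure of background was among the values, so a fold is given only where both means lay above 0.022, the highest median of any array. The protein effect is the mean of TF and TS minus the mean of CF and CS, and the oil effect is the mean of TF and CF minus the mean of TS and CS, each with 10 rats on a side. A gene is said to have risen or fallen at an adjusted p under 0.05 in limma, by the Benjamini-Hochberg method across the 31039 probe sets tested. The labels do not say more of the replicates than that they are separate rats, and 5 arrays per diet limit the precision.

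Fabp1 lay close to the top of the array's signal, with 0.0902% of the probe sets above it, and Slc27a2 (0.416%) and Dbi (0.445%) were also there. Fabp7 (2.74%) and Fabp5 (4.95%) lay in the upper range, Slc27a4 (16.3%) and Slc27a1 (20.04%) below them, and Fabp2 (39.6%) and Cd36 (41.5%) near the middle. Fabp4, the adipocyte-type protein, lay below the middle with 58.9% of the probe sets above it, and its group means of -0.23 in TF, -0.22 in TS, -0.19 in CF and -0.13 in CS were all under the highest array median. These are positions of probe sets in the array's signal and do not rank the mRNA amounts of the genes. The array medians ranged from -0.10 to 0.02 and the mean correlation of an array with the others from 0.939 to 0.956, while the 5′ beta-actin control read 1.30 to 1.42 in rats TF-3, TS-1, CF-1 and CS-1 and 1.86 to 2.13 in the other 16.

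**Figure D1:**
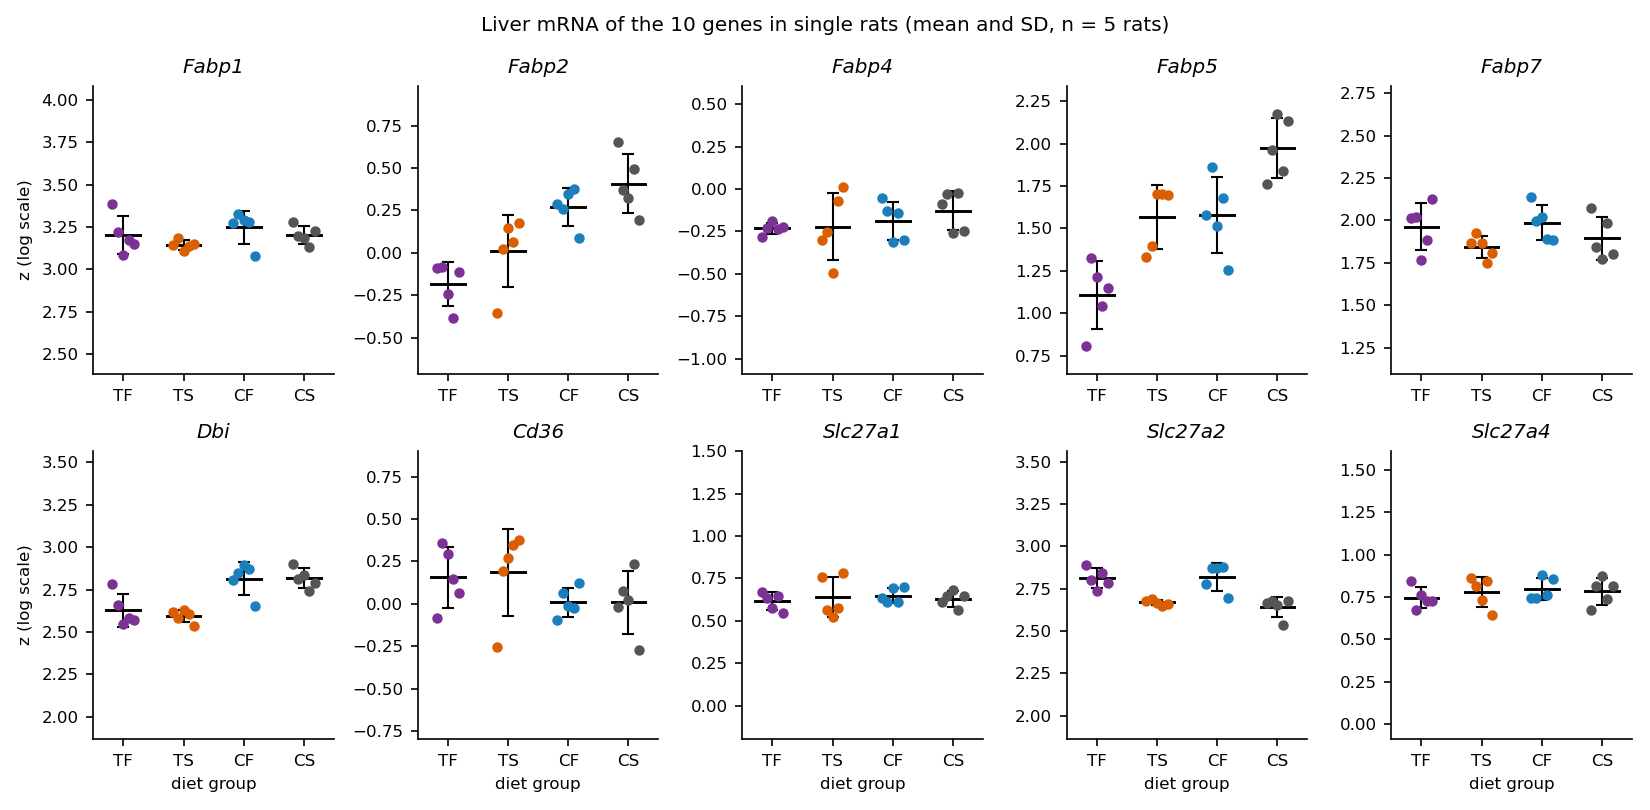
Liver values (z, log scale) of the 10 genes in each rat, with the TF, TS, CF and CS groups from left to right, the horizontal line and bars giving the mean and SD of 5 rats. All panels span the same height in z, so that the step from TF to CS in Fabp5 (means 1.11 and 1.97) can be set against the flat values of Slc27a1 (0.61 and 0.63).

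Replacing casein by tofu lowered 3 of the 10 genes and raised none. These were the binding proteins Fabp2 (intestinal type), Fabp5 (epidermal type) and Dbi, which fell by 0.43, 0.44 and 0.20 in z. Over all probe sets 0.258% were lower and 0.300% higher on tofu by the same rule. Replacing soybean oil by fish oil raised Slc27a2, the very long-chain acyl-CoA synthetase and transport protein of liver, by 0.16 in z, against 0.177% of all probe sets that were higher on fish oil. Fabp5 fell by 0.43 in z on fish oil as well, against 0.0161% that were lower. The median protein effect was -0.04 over the 10 genes and 0.01 over all probe sets, and the median oil effect -0.01 over the 10 genes and 0.00 over all probe sets.

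**Figure D2:**
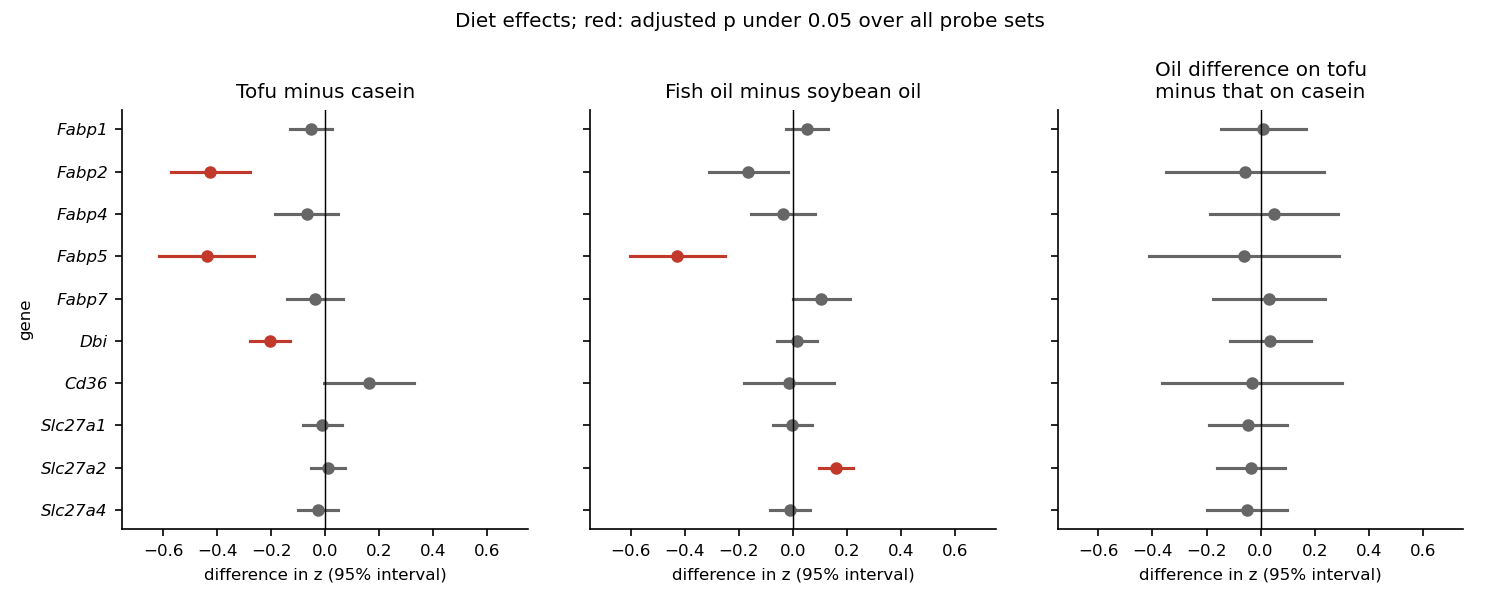
Protein effect, oil effect and their interaction for each gene, in z with 95% intervals from the limma fit of 20 rats, red where the adjusted p was under 0.05. Fabp2, Fabp5 and Dbi lay below 0 for tofu, Fabp5 below and Slc27a2 above 0 for fish oil, and no interaction was called.

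Among the cytosolic binding proteins Fabp5 had the widest spread between diets. The 5 TF rats read 0.80, 1.04, 1.15, 1.22 and 1.32 in z and the 5 TS rats 1.33, 1.39, 1.70, 1.70 and 1.71. The CF rats read 1.25, 1.52, 1.58, 1.68 and 1.86 and the CS rats 1.76, 1.84, 1.96, 2.13 and 2.18. Every TF rat was below every TS rat (so for 0.606% of all probe sets) and every CS rat (0.957%), and every TS rat was below every CS rat (0.438%). TS and CF lay over each other, and CF overlapped CS through its highest rat, CF-2, and TF through its lowest, CF-7.

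Fabp5 averaged 1.34 ± 0.30 on tofu and 1.78 ± 0.28 on casein (SD, n = 10 each), a protein effect of -0.44 ± 0.08 (SE) or 2.12-fold lower (95% interval 1.57 to 2.87, limma adjusted p = 0.0168). On fish oil it averaged 1.34 ± 0.32 and on soybean oil 1.77 ± 0.28, an oil effect of -0.43 ± 0.08 or 2.09-fold lower (1.54 to 2.82, limma adjusted p = 0.0374). The oil difference on tofu was larger than that on casein by 0.06 ± 0.17 (interaction -0.06, 95% interval -0.41 to 0.29, adjusted p of 1 in limma), an interval wide enough to hold an oil difference on tofu well above or well below that on casein. Fabp5 mRNA in a piece of liver also reflects the cells that make it, and fewer cells of a type cannot be told apart from less mRNA per cell in these data. The fall on tofu lost its call in a fit of the 16 arrays other than TF-3, TS-1, CF-1 and CS-1 (-0.40, limma adjusted p = 0.0746). With the rat number as a replicate block the falls on tofu and on fish oil both lost their calls (-0.46 and -0.40, limma adjusted p = 0.0547 and 0.182). The fall on fish oil kept its call in 6 of the 20 fits that left out 1 rat, those without CF-2, CS-1, CS-6, TF-4, TS-1 or TS-2, and lost it in the other fits (highest adjusted p 0.0946, without CF-5).

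Against CS, Fabp5 was lower by 0.87 ± 0.12 in TF (4.43-fold, 95% interval 2.89 to 6.79, limma adjusted p = 0.00106), and 0.171% of all probe sets were lower in TF than in CS by this rule. The differences of TS and of CF from CS were -0.41 ± 0.12 and -0.40 ± 0.12 (limma adjusted p = 0.323 and 0.875) and did not pass the test over all probe sets. TF differed from CF by -0.47 and from TS by -0.46 (limma adjusted p = 0.255 and 0.378). These comparisons share rats and are given side by side. In the order of the means, CS lay above CF, CF above TS and TS above TF, and no neighbouring pair in that order passed the test.

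**Figure D3:**
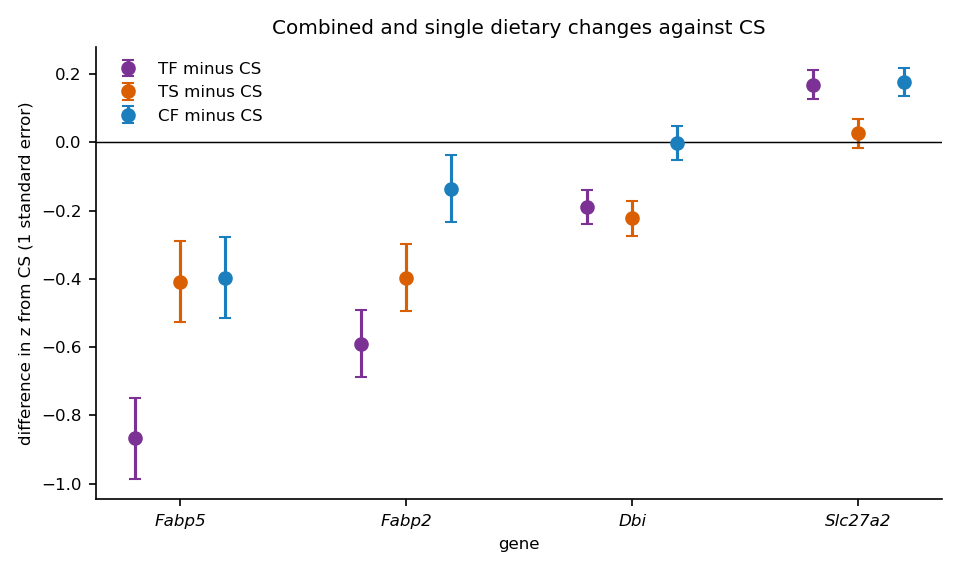
Difference in z of TF, TS and CF from CS (points, with 1 standard error of the limma fit) for Fabp5, Fabp2, Dbi and Slc27a2. Fabp5 lay at -0.87 in TF, -0.41 in TS and -0.40 in CF, Dbi was low in both tofu groups, and Slc27a2 was high in both fish oil groups. Only the TF differences of Fabp5 and Fabp2 passed the test, and none of Dbi or Slc27a2.

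Fabp2 is best known from the absorptive cells of the intestine, where it binds the long-chain fatty acids taken up from food. In the liver its values were -0.39, -0.25, -0.11, -0.09 and -0.08 in TF rats and -0.36, 0.02, 0.06, 0.15 and 0.17 in TS rats. The casein groups read 0.09, 0.26, 0.29, 0.35 and 0.37 in CF rats and 0.20, 0.32, 0.37, 0.49 and 0.65 in CS rats. All TF rats were below all CF rats, as for 0.825% of all probe sets, and below all CS rats, and all TS rats were below all CS rats, while TS and CF overlapped. On tofu Fabp2 averaged -0.09 ± 0.20 and on casein 0.34 ± 0.16 (SD, n = 10 each), a protein effect of -0.43 ± 0.07 (95% interval -0.57 to -0.28, limma adjusted p = 0.00551). The tofu groups lie around the middle of the array signal, so no fold is given. This call held in each of the 20 fits without 1 rat and in the other settings tried.

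TF rats were lower than CS rats in Fabp2 by 0.59 ± 0.10 (limma adjusted p = 0.00721), whereas the difference of TS from CS, -0.40, and that of TF from CF, -0.45, did not pass (adjusted p = 0.214 and 0.137). On fish oil Fabp2 averaged 0.04 and on soybean oil 0.21, a difference of -0.17 ± 0.07 that did not pass either (adjusted p = 0.823). The limma interaction was -0.06 (95% interval -0.35 to 0.23). Other genes known from enterocytes gave values for 5 of 7 listed: Vil1 and Alpi, which build and mark the brush border, lay at or below the highest array median in all 4 diets, and 0 of the 5 rose or fell by limma. The lowest p values were those of the peptidase Anpep on tofu (0.15 higher, limma adjusted p = 0.264) and of the apolipoprotein gene Apoa4 on fish oil (-0.37, limma adjusted p = 0.0597), the only ones unadjusted under 0.05. The mean of these 5 genes ranged over rats from 0.75 to 1.10 in TF, 0.87 to 1.13 in TS, 0.73 to 0.99 in CF and 0.83 to 1.08 in CS. With Vil1 and Alpi that low, these means rest on Apoa4, Anpep and Cdh17 and do not measure enterocyte content. The part of enterocytes in the Fabp2 result was not tested.

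Dbi was high in every liver and differed between the tofu and the casein diets. TF rats read 2.54, 2.57, 2.58, 2.66 and 2.78 and TS rats 2.54, 2.58, 2.60, 2.62 and 2.63. CF rats read 2.65, 2.81, 2.85, 2.87 and 2.89 and CS rats 2.74, 2.79, 2.81, 2.84 and 2.90. The TS rats were all below the CF rats, as for 0.622% of all probe sets, and below the CS rats, whereas in TF the highest rat, TF-3, reached into the range of both casein groups, and TF-4 lay just above CF-7. Dbi averaged 2.61 ± 0.07 on tofu and 2.82 ± 0.07 on casein (SD, n = 10 each), a protein effect of -0.20 ± 0.04 or 1.42-fold lower (95% interval 1.25 to 1.62, limma adjusted p = 0.00924). Between the oils it averaged 2.72 on fish oil and 2.71 on soybean oil, a difference of 0.02 with a 95% interval of -0.06 to 0.09. The protein effect was -0.19 with an adjusted p of 0.0694 in limma without the 3 arrays least correlated with the others (TF-4, TF-5 and TS-7). None of the pairs of diets passed the test for Dbi (TS minus CS -0.22, TF minus CS -0.19, TF minus CF -0.19).

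Slc27a2 differed between the oils. With fish oil the values were 2.74, 2.78, 2.80, 2.84 and 2.89 in TF rats and 2.69, 2.78, 2.87, 2.87 and 2.87 in CF rats. With soybean oil they were 2.65, 2.66, 2.67, 2.68 and 2.69 in TS rats and 2.54, 2.65, 2.67, 2.68 and 2.68 in CS rats. The ranges of the 10 fish oil and the 10 soybean oil rats did not overlap, which held for 0.0805% of all probe sets with fish oil higher, although the lowest fish oil rat, CF-7, was close to the highest soybean oil rat, TS-2. The means were 2.82 ± 0.07 and 2.66 ± 0.04 (SD, n = 10 each), an oil effect of 0.16 ± 0.03 or 1.31-fold higher (95% interval 1.18 to 1.46, limma adjusted p = 0.0266). The protein effect was 0.01 (95% interval -0.05 to 0.07), and its sign turned under quantile normalization. The oil call held in 11 of the 20 fits without 1 rat and ended without CF-2, CF-5, CF-6, CS-5, TF-3, TF-6, TS-4, TS-5 or TS-7 (highest adjusted p 0.0719). It also ended without the 4 arrays of low 5′ beta-actin (0.16, limma adjusted p = 0.160) and with the rat number as a replicate block (limma adjusted p = 0.259). None of the pairs of diets passed the test for Slc27a2. TF minus CS was 0.17, CF minus CS 0.18 and TF minus TS 0.14 (limma adjusted p = 0.0991, 0.321 and 0.541).

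The other 6 genes passed neither test. Fabp1 read 3.08 to 3.38 in TF, 3.11 to 3.19 in TS, 3.08 to 3.33 in CF and 3.13 to 3.28 in CS, so that all diets overlapped. Its protein effect was -0.05 (95% interval -0.13 to 0.03) and its oil effect 0.05 (-0.03 to 0.13). Fabp7, the brain type, averaged 1.96 ± 0.14 in TF, 1.84 ± 0.07 in TS, 1.99 ± 0.10 in CF and 1.89 ± 0.13 in CS (SD, n = 5 each), and its oil effect of 0.11 did not pass (adjusted p = 0.891 in limma). Slc27a1 and Slc27a4, transport proteins best known from muscle and fat and from the intestine, had protein effects of -0.01 and -0.03 and oil effects of 0.00 and -0.01, and their 95% intervals lay between -0.10 and 0.07. Fabp4 had a protein effect of -0.07 (-0.19 to 0.05).

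Cd36 was the only one of the 10 genes with a mean more than 0.1 higher on tofu. TF rats read -0.09, 0.06, 0.15, 0.29 and 0.36 and TS rats -0.26, 0.19, 0.27, 0.35 and 0.38. CF rats read -0.10, -0.03, -0.01, 0.06 and 0.12 and CS rats -0.27, -0.02, 0.02, 0.08 and 0.24. The tofu groups overlapped the casein groups through rats TF-3, TF-7, TF-6, TS-1 and TS-2, of which TF-3 and TS-1 are among the 4 with low 5′ beta-actin. The protein effect was 0.16 ± 0.08 (95% interval -0.0046 to 0.33, limma adjusted p = 0.508). The probe set shared with Cd36l1 gave 0.12 ± 0.05 (adjusted p = 0.437 in limma), and neither passed.

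The interaction asks whether the oil difference was the same on the tofu and the casein diets. For it 0 of the 10 genes and 0.00% of all probe sets passed in limma. Of all probe sets 3.43% had an unadjusted p under 0.05. The lowest unadjusted p of the 10 genes was 0.499, at Slc27a4. The 95% interval was narrowest for Slc27a2 (-0.16 to 0.09) and widest for Fabp5 (-0.41 to 0.29) and Cd36 (-0.36 to 0.30).

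Other genes of the same pathway did not pass the tests. Of 21 measured genes among 24 listed for binding and uptake, such as further Fabp and Slc27a members, the acyl-CoA binding Acbd proteins and the lipases and receptors that deliver lipid to cells, 0 rose and 0 fell in either effect by limma, while at an unadjusted p under 0.05 there were 1 higher and 3 lower on tofu and 1 higher and 2 lower on fish oil. Over all probe sets 6.65% were higher and 3.53% lower on tofu at an unadjusted p under 0.05 in limma, and 2.97% and 2.58% on fish oil. The lowest p values in the list were those of Lipc, the hepatic lipase, on tofu (-0.11, limma adjusted p = 0.149) and of Fabp12 on fish oil (-0.09, adjusted p = 0.754). The list's median was -0.01 for tofu and -0.02 for fish oil, and its single differences ran from -0.37 (Mfsd2a, a lipid transporter, limma adjusted p = 0.268) to 0.16 (Slc27a5, limma adjusted p = 0.244) on tofu and from -0.12 to 0.20 (Slc27a3, limma adjusted p = 0.896) on fish oil. Of 13 regulators, among them the nuclear receptors Ppara, Pparg and Hnf4a, 0 rose and 0 fell by limma (1 lower on tofu and 1 higher on fish oil at an unadjusted p under 0.05), and Srebf1, which encodes the lipogenic factor SREBP-1, had the lowest p on tofu (-0.18, limma adjusted p = 0.340). Ppara itself, which encodes PPAR alpha, had an oil effect of 0.00 and lay at or below the highest array median.

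Genes known as targets of PPAR alpha, a fatty acid sensor that drives fatty acid oxidation, and of SREBP-1, which drives fatty acid synthesis, included called genes. Of 17 measured PPAR alpha targets 10 rose and 0 fell on fish oil, with a median of 0.20, and the 4 with the lowest p were the thioesterases Acot2 (0.60) and Acot1 (2.31), the omega-hydroxylase Cyp4a1 (0.53) and the pantetheinase Vnn1 (0.70). On tofu 3 of them fell, Pdk4 (-0.55), a brake on pyruvate oxidation, the hormone Fgf21 (-0.50) and the lipase inhibitor Angptl4 (-0.29), and the median was -0.04. Of 14 SREBP-1 targets 12 fell on tofu, with a median of -0.41, and the 4 with the lowest p were the lipase Pnpla3 (-1.93), Acly (ATP citrate lyase, -0.44), Fasn (fatty acid synthase, -0.77) and Scd (stearoyl-CoA desaturase, -0.70). On fish oil 1 fell, Pnpla3 (-0.58). At an unadjusted p under 0.05 in limma 5 were lower on fish oil, Pnpla3 included, and 0 higher, against 2.58% and 2.97% of all probe sets. Side by side with these, Slc27a2 was 0.16 higher and Fabp5 0.43 lower on fish oil, in z. Fabp1 and Cd36 had oil effects of 0.05 and -0.01 that did not pass. On tofu Fabp2, Fabp5 and Dbi were 0.43, 0.44 and 0.20 lower.

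**Figure D4:**
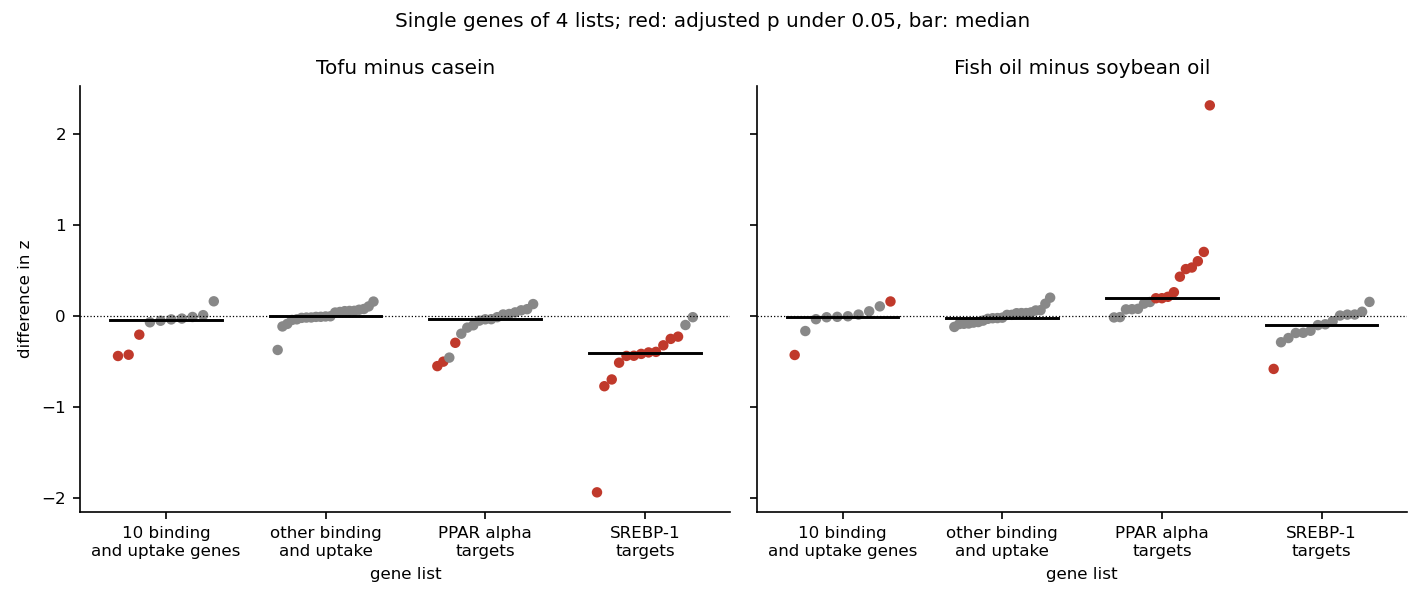
Differences in z of single genes in 4 lists, left for tofu minus casein and right for fish oil minus soybean oil, with red points for an adjusted p under 0.05 and a bar at each list's median. The binding and uptake genes spread from -0.44 to 0.16 on tofu, against -1.93 to -0.01 for SREBP-1 targets, and the PPAR alpha targets reached 2.31 on fish oil.

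Markers of the cells that a piece of liver can hold were compared because Fabp4, Fabp5 and Cd36 are also made by macrophages, endothelial cells or adipocytes. Hepatocyte markers were high in all diets (means over 7 genes from 2.87 to 3.11), and 0 of the 7 passed in limma. At an unadjusted p under 0.05 there were 2 higher on tofu, the cytochrome Cyp2e1 by 0.20 (limma adjusted p = 0.0636) and Serpina1 by 0.08, and 1 higher on fish oil, Cyp2e1 by 0.13. For this and the counts below, 6.65% of all probe sets were higher and 3.53% lower on tofu at that threshold. On fish oil 2.97% were higher and 2.58% lower. Of 7 measured macrophage markers and 8 endothelial markers 0 rose and 0 fell by limma in either effect, and at an unadjusted p under 0.05 there were 3 endothelial genes higher on tofu (Stab2 by 0.13, Lyve1 by 0.07 and Eng by 0.07) and 1 macrophage gene lower on fish oil (C1qa by 0.08). All 7 macrophage differences were above 0 on tofu (median 0.04) and below 0 on fish oil (median -0.06, lowest -0.08), beside the -0.44 and -0.43 of Fabp5. Of the endothelial differences 7 were above and 1 below 0 on tofu (median 0.06). On fish oil 2 of them were above and 6 below 0 (median -0.02). The medians over all probe sets were 0.01 on tofu and 0.00 on fish oil, and these signs were not tested. The macrophage mean ranged over rats from 1.04 to 1.25 in TF, 1.07 to 1.32 in TS, 1.09 to 1.15 in CF and 1.02 to 1.26 in CS, and the endothelial mean from 0.87 to 0.99 in TF, 0.89 to 1.02 in TS, 0.85 to 0.93 in CF and 0.84 to 0.94 in CS. Of 6 adipocyte markers 0 rose or fell by limma (1 lower on fish oil at an unadjusted p under 0.05), and Adipoq, Plin1 and Lep lay at or below the highest array median. Of 8 stellate cell markers Rgs5, known from pericytes, rose on tofu (0.28, limma adjusted p = 0.0151) while lying at or below the highest array median, and the other 7 did not pass. All 8 were below 0 on fish oil (median -0.05), 3 of them at an unadjusted p under 0.05 (Col3a1 at -0.10, Reln at -0.09 and Col1a1 at -0.09), beside the -0.43 of Fabp5 on fish oil, and on tofu Reln was the only other gene unadjusted under 0.05 (0.10). Cholangiocyte (5 measured) and lymphocyte markers had 0 calls for tofu or fish oil in limma, with 1 cholangiocyte gene lower on fish oil at an unadjusted p under 0.05, and all 6 lymphocyte genes lay at or below that median. The part of cell composition in the Fabp5, Fabp2 and Cd36 values was not tested.

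Rats on the same diet also differed, and some of the 10 genes varied together from rat to rat. Deviations from the diet mean were correlated for all 45 pairs over 20 rats, with two-sided permutation of rats within diets and adjustment over the pairs. In the values as deposited 3 pairs passed by Pearson's r: Fabp1 with Slc27a2 (r = 0.83, permutation p = 0.0002, adjusted 0.00900; rho = 0.73, p = 0.00101, adjusted 0.0455), Dbi with Slc27a2 (r = 0.80, permutation p = 0.00075, adjusted 0.0116; rho = 0.69, p = 0.00429, adjusted 0.0644) and Fabp1 with Dbi (r = 0.88, permutation p = 0.00077, adjusted 0.0116; rho = 0.72, p = 0.00378, adjusted 0.0644). Without the 2 rats farthest on the Fabp1 or Dbi axis the r values were 0.81, 0.79 and 0.82, with permutation p adjusted to 0.0342, 0.0342 and 0.0567. Within the TF, TS, CF and CS diets r was 0.90, 0.58, 0.90 and 0.76 for Fabp1 with Slc27a2, 0.82, 0.01, 0.96 and 0.66 for Dbi with Slc27a2, and 0.98, -0.54, 0.93 and 0.84 for Fabp1 with Dbi. TF-3 stood highest and CF-7 lowest within its diet in all 3 genes. TF-3, and CS-1 and TS-1 named below, are among the 4 rats with low 5′ beta-actin, and CF-7 is not. The correlations were not run without those 4 rats.

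All 3 genes lie near the top of the array's signal. The SD of all values on an array ranged from 0.723 in TF-5, the lowest TF rat in all 3 genes, to 0.772 in TF-3. In CF-7 it was 0.731, the smallest SD of the CF arrays. After quantile normalization, which gives every array the same distribution and was added after seeing the data, r fell to 0.41 for Fabp1 with Slc27a2 and 0.38 for Dbi with Slc27a2 (permutation p adjusted to 0.473 for both). Fabp1 with Dbi stayed past the threshold by r (r = 0.71, permutation p adjusted to 0.0384) but not by rank (rho = 0.67, permutation p adjusted to 0.0749) or without rats CS-1 and TS-1 (r = 0.67, permutation p adjusted to 0.208). In their place Fabp1 with Fabp2 reached r = 0.89 (rho = 0.85, permutation p = 2e-05, adjusted 0.000900; 0.81 without CS-1 and TS-1, adjusted p by permutation 0.0315), against r = 0.34 (rho = 0.31, adjusted p by permutation 0.393) in the values as deposited, and r within TF, TS, CF and CS was 0.90, 0.92, 0.92 and 0.88. Few probe sets lay above Fabp1 (0.0902% of all), so quantile normalization set its values to coarse steps at the top of the distribution. Rats CF-2 and CF-6 share a normalized Fabp1 value, as do TS-2 with TS-4 and CS-2 with CS-6. The r values of normalized Fabp1 rest on such steps. Fabp2 with Dbi reached 0.67 (permutation p adjusted to 0.0384), against 0.38 as deposited, and did not pass by rank (rho = 0.63, permutation p adjusted to 0.112) or without rats CS-1 and TF-6 (r = 0.54, permutation p adjusted to 0.315). Fabp5, the gene with the widest differences between diets, was in none of the pairs that passed under either scaling. The median r over the 45 pairs was 0.07 as deposited and 0.05 after quantile normalization.

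**Figure D5:**
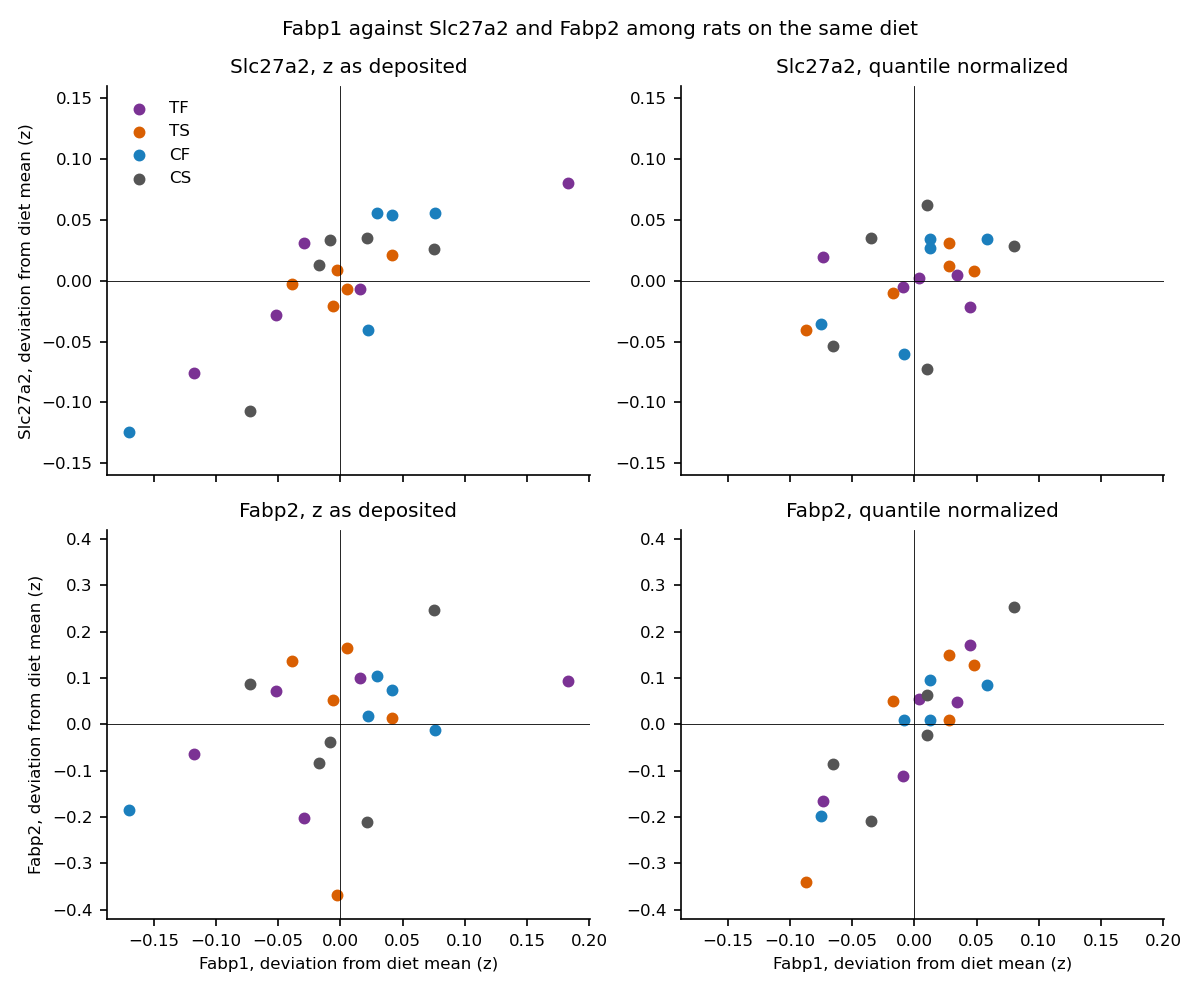
Deviation of each rat from its diet mean in Fabp1 (x axis, z) against Slc27a2 (upper panels) and Fabp2 (lower panels), as deposited on the left and after quantile normalization on the right, coloured by diet. The relation with Slc27a2 (r = 0.83 and 0.41) loosened and the relation with Fabp2 (r = 0.34 and 0.89) tightened when the arrays were given one distribution. Fabp1 then took coarse steps, and some rats share a value.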

How the data were processed

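Liver RNA of 20 rats was hybridised to Affymetrix Rat Genome arrays, 1 array per rat. The authors used the SuperNORM service for normalization, and the deposited values are z scores, 1 per probe set and rat, standardized to each array's own distribution on a log scale. The version and the treatment of background are not given in the sources used here. The table has 31099 probe sets. Leaving out 57 controls, 31039 with at least 3 values in every diet were tested, of which 20825 have 1 gene symbol, 436 several and 9778 none. A linear model of the 4 diet means without covariates was fitted with limma 3.58.1 in R 4.3.3, and the code was tested on simulated data. Correlations used 100000 permutations in Python 3.11.15. All 10 genes are named; of the other lists the called members, at most 4 per effect by lowest adjusted p, or else the member with the lowest p. Further marker genes, Mfsd2a, Slc27a3 and Slc27a5 were named after their values were seen. The genes and lists were chosen with earlier results of these data known. The labels do not say whether rat numbers pair the samples, and the main fit did not use them. Alternatives were other scalings, bright probe sets, a block, other variance estimates, array weights and fewer arrays. Motifs were searched on both strands.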

Additional observations from a re-analysis of the deposited data

Results flagged for a closer look

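In 3 cases a value lay far from the other 4 rats of its diet by Dixon's criterion, out of 40 groups of 5 rats examined (10 genes in 4 diets), and chance marks about 1 in 20 such groups. Fabp1 was 3.08 in rat CF-7, against 3.27 to 3.33 in the other CF rats. Fabp2 was -0.36 in rat TS-1, against 0.02 to 0.17 in the other TS rats. Slc27a2 was 2.54 in rat CS-6, against 2.65 to 2.68 in the other CS rats.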

How the results depend on the processing

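Fabp2 kept its fall on tofu, and Fabp5 its fall in TF against CS, in every setting run, with highest adjusted p of 0.0490 and 0.0270. With the rat number as a replicate block, the protein effect of Fabp5 was -0.46 (adjusted p = 0.0547), its oil effect -0.40 (0.182), the oil effect of Slc27a2 0.15 (0.259) and Fabp2 in TF against CS -0.66 (0.0809), each past the threshold before, and 91 and 27 probe sets were called for protein and oil, against 173 and 60. Same-numbered rats had a median correlation of 0.04, against -0.01 for rats of other numbers, and 6 of 19 correlated best with their own number. The rats numbered 1 (CF-1, CS-1 and TS-1) were also among the 4 with the lowest 5′ beta-actin. These values do not settle whether the numbers pair the rats. The protein effect calls were 347 among bright probe sets, 289 with a variance trend, 72 without the 4 low 5′ beta-actin rats, 74 without the 3 least correlated arrays and 114 to 164 without 1 rat (114 without CS-2), and the oil effect calls were 34 without those 3 arrays and 46 to 60 without 1 rat. The oil effect of Fabp5 was -0.43 without moderation (0.0827), -0.45 and -0.47 without those 4 rats (0.0608) and 3 arrays (0.0738), and -0.46 to -0.39 without 1 rat (0.0187 to 0.0946). The oil effect of Slc27a2 was 0.16 and 0.17 without them (0.160 and 0.0724) and 0.15 to 0.17 without 1 rat (0.00832 to 0.0719). The protein effect of Fabp5 was -0.40 without those 4 rats (0.0746), and that of Dbi -0.19 without those 3 arrays (0.0694). The cause of these losses was not tested, though fewer rats were used in several. After quantile normalization r was 0.41, 0.38, 0.89 and 0.67 for Fabp1 with Slc27a2, Dbi with Slc27a2, Fabp1 with Fabp2 and Fabp2 with Dbi. In the values as deposited, r of Fabp1 with Dbi was 0.82 without rats CF-2 and TF-3 (permutation p adjusted to 0.0567).

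Signs turned only in differences that did not pass the test. Quantile normalization gave -0.043 for the protein effect of Slc27a2, and oil effects of -0.017 for Dbi and 0.0012 for Slc27a1. The oil effect of Slc27a1 was also 0.00081 with a common median and interquartile range, 0.0011 with array weights, and 0.0042 and 0.017 without the 4 rats and 3 arrays above, and the common median and interquartile range gave 0.015 for the interaction of Slc27a2. The other Cd36 probe set and the mean of both gave oil effects of 0.039 and 0.013 and interactions of 0.080 and 0.024. The interaction of Fabp1 was -0.015 with the replicate block and -0.00046 with array weights. Without the 4 low 5′ beta-actin rats the protein effect of Slc27a2 was -0.0039 and the interactions of Fabp1, Fabp5 and Dbi were -0.049, 0.0080 and -0.021. Without 1 rat the protein effects ranged from -0.028 to 0.0035 for Slc27a1 and -0.0065 to 0.019 for Slc27a2, the oil effects from -0.0039 to 0.036 for Dbi, -0.069 to 0.016 for Cd36, -0.018 to 0.014 for Slc27a1 and -0.026 to 0.0019 for Slc27a4, and the interactions from -0.035 to 0.040 for Fabp1, -0.018 to 0.11 for Fabp4, -0.14 to 0.014 for Fabp5, -0.014 to 0.078 for Fabp7, -0.0049 to 0.056 for Dbi and -0.14 to 0.038 for Cd36. Fabp4 could not be fitted among bright probe sets, and without a measure of background the low values of Fabp2, Fabp4 and Cd36 limit what their differences show.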
